A study of Mus musculus with 2 samples.

Results

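The 10 listed genes that carry the drug gemcitabine into cells or decide what becomes of it were followed over 2 spatial libraries of mouse pancreatic tumors. They were chosen by symbol as the equilibrative transporters Slc29a1 and Slc29a2, the concentrative transporters Slc28a1 and Slc28a3, the kinase Dck, the deaminases Cda and Dctd, and the ribonucleotide reductase genes Rrm1, Rrm2 and Rrm2b. Of these 10 genes, 8 were among the 19465 features. Rrm2 and Rrm2b were not in the feature list used and were not analysed here. Each library is a Visium CytAssist section, on which probes for each gene are captured at barcoded spots, so that a spot reads a small region holding several cells. One library was labelled KPC-shZEB1 and 1 was labelled KPC-shV, after the cells placed in the mouse pancreas. KPC cells are a mouse pancreatic tumor line, used in both groups. The label KPC-shZEB1 names a knockdown of ZEB1 in the cells. The study's text has shV as their control and the knockdown as a stable lentiviral line. The labels name no drug, while the study's text has gemcitabine given in both groups and mice of 4 to 6 weeks, without tying a mouse strain or a dose to these sections. The study's methods give 2 tumors per group, and the labels do not say which tumor a section came from.

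Gemcitabine is a deoxycytidine analog that crosses the cell membrane through nucleoside transporters, chiefly ENT1 (Slc29a1) and to a lesser degree ENT2 (Slc29a2), CNT1 (Slc28a1) and CNT3 (Slc28a3). Deoxycytidine kinase (Dck) adds the first phosphate, which traps and activates the drug. Cytidine deaminase (Cda) converts gemcitabine to an inactive uridine form, and dCMP deaminase (Dctd) does the same to its monophosphate. The diphosphate form inhibits ribonucleotide reductase, whose large subunit is Rrm1, and the triphosphate is built into DNA.

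The library labelled KPC-shZEB1 held 2220 spots with 140493626 UMIs in all, and that labelled KPC-shV held 3552 spots with 172059528 UMIs. Spots with over 20% of UMIs from a list of acinar genes, which mark normal exocrine pancreas, made up 34.0% and 6.95% of spots, respectively. Levels are therefore given outside these acinar-rich spots, over 1466 and 3305 spots, as CPM (UMIs per 1000000 UMIs), with exact intervals at the 95% level that cover counting error only. With 1 library per group there was no test and no replicate check. The targeted gene, Zeb1, stood at 15.6 CPM under the knockdown label and 12.7 CPM under the control label, which goes against the label. Over all spots Zeb1 stood at 10.8 and 12.4 CPM, a log2 ratio of -0.20 for KPC-shZEB1 over KPC-shV. The median ratio of all genes was -0.48 there, and 76.3% of them had a lower ratio than Zeb1. A spot holds several cells, so the Zeb1 of the injected cells could not be told apart from that of other cells. The libraries shared 1718 spot barcodes, which name positions on the slide. Marker lists also differed between them outside acinar-rich spots, with values given for KPC-shZEB1 and KPC-shV, respectively. The T cell list was at 125 and 27.8 CPM, the plasma cell list at 177 and 13.5 CPM and the neutrophil list at 144 and 333 CPM. The hypoxia list was at 1357 and 2357 CPM and the tumor epithelium list at 6289 and 7264 CPM. The fibroblast list was at 8179 and 6546 CPM and the macrophage list at 2622 and 1710 CPM. The acinar list was still at 6697 and 1958 CPM there. No gene of these lists was at 0 in either library, and the part of these differences in the results was not tested. In such bulk-like spots, fewer cells of a type and less RNA per cell cannot be told apart.

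The promoters of 3 of the genes that were highest in the spots richest in mitosis genes are shown: Slc29a1, the main route of entry, the deaminase Dctd and the reductase subunit Rrm1. Each line holds the 250 bases before the RefSeq start on GRCm38.p6, read 5' to 3' along the gene. The windows are chr17:45599619-45599868 on the minus strand, chr8:48098842-48099091 on the plus strand and chr7:102441445-102441694 on the plus strand. Capitals mark matches on either strand to CACCTG, the E-box that ZEB1 is known to bind, and to ACGTG, the core of the hypoxia response element.
Slc29a1: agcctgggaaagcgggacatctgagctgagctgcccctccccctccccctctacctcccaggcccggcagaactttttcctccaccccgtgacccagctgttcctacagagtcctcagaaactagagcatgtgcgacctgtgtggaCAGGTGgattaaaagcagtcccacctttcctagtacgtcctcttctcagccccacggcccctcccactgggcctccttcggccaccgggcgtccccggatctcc
Dctd: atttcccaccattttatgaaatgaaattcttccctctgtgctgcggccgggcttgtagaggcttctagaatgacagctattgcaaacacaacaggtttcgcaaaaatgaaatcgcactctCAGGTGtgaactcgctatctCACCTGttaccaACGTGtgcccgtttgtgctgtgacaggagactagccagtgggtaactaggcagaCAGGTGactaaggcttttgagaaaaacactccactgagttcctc
Rrm1: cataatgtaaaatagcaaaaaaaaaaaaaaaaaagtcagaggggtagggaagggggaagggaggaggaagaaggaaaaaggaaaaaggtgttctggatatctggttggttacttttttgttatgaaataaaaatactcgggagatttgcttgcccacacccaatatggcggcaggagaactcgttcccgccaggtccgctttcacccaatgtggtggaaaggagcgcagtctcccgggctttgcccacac
Slc29a1 held 1 E-box match, 104 bases before the start. Dctd held 3 E-box matches, 130, 110 and 44 bases before the start, and 1 match to ACGTG at 98 bases. Rrm1 held none of these letters in its window. Windows not printed are those of Slc29a2, also highest in the spots richest in mitosis genes, Slc28a1, Slc28a3, Dck and Cda. Of these, Slc28a3 held 1 E-box match and the others held none of these letters. Of 32536 windows of this length, 17.3% held the E-box and 16.7% held ACGTG. The E2F motifs TTTCGCGC and TTTGGCGC were in no window of the 8 genes and in 0.661% of all windows. Other forms of the E2F site were not searched. RefSeq lists 8 starts for Slc29a1 and 3 for Dctd, and the start nearest to the gene's outer end was used.

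The first comparison asked whether the genes differed between the tumor labelled with ZEB1 knockdown and its control. Among the transporters, Slc29a1 (ENT1; chr17:45585200-45599606) was at 43.9 CPM (42.5 to 45.3) under the label KPC-shZEB1 and at 42.5 CPM (41.5 to 43.5) under the label KPC-shV. Taking KPC-shZEB1 relative to KPC-shV, the log2 ratio was 0.05 (-0.01 to 0.11), so that the levels overlapped within counting error. Slc29a2 (ENT2) was at 9.91 and 11.1 CPM, a log2 ratio of -0.17 (-0.28 to -0.05).

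Both concentrative transporters were near the level of genes that neither pancreas nor tumor should use. Slc28a1 was at 0.724 CPM from 62 UMIs and 0.809 CPM from 134 UMIs. Slc28a3 was at 1.84 CPM (1.57 to 2.16) from 158 UMIs in KPC-shZEB1 and at 0.622 CPM (0.508 to 0.754) from 103 UMIs in KPC-shV, a log2 ratio of 1.57 (1.20 to 1.94). A list of 12 genes such as rhodopsin, protamines and hypothalamic peptides ranged from 0.409 to 1.98 CPM and from 0.441 to 1.44 CPM in these libraries, so both Slc28a1 values and both Slc28a3 values lay within the range of this background.

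The kinase and both deaminases were lower in the library labelled KPC-shZEB1. Dck was at 21.0 CPM (20.1 to 22.0) against 27.7 CPM (26.9 to 28.5), a log2 ratio of -0.40 (-0.48 to -0.32). Cda (chr4:138338424-138367992) was at 26.4 CPM (25.3 to 27.5) against 41.5 CPM (40.5 to 42.4), a log2 ratio of -0.65 (-0.72 to -0.58). Of the 18898 genes whose UMIs summed to 100 or more, 4.60% had a lower ratio than Cda. Dctd (chr8:48099092-48153233) was at 67.6 CPM (65.9 to 69.4) against 89.1 CPM (87.7 to 90.6), a log2 ratio of -0.40 (-0.44 to -0.35). Dck and Dctd stood at the 13.3 and 13.1 percentiles of all genes. Rrm1 (chr7:102441695-102469771), the reductase subunit, was at 104 CPM (102 to 106) against 97.0 CPM (95.5 to 98.5), a log2 ratio of 0.10 (0.06 to 0.13). The median of all genes was -0.01.

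Of the 8 genes, 1 (Slc28a3) was at least 2-fold higher in KPC-shZEB1 (log2 of 1 or more), beside 3.79% of all genes, and 0 were at least 2-fold lower, beside 1.72% of all genes. Over all spots, with the acinar-rich ones included, each of these genes apart from Slc28a3 read lower in KPC-shZEB1 than in KPC-shV. There Cda was at 17.0 and 40.2 CPM (log2 ratio -1.24) and Dctd at 42.4 and 86.1 CPM (log2 ratio -1.02). These 2 of 8 were then past the fold downwards, beside 8.2% of all genes, and Slc28a3 was past it upwards (1.22), beside 2.08% of genes. The median of all genes over all spots was -0.48, and each of the 8 genes was lower in the acinar-rich spots than outside them, apart from Slc28a3 in KPC-shV. Slc29a1, for instance, was at 4.49 and 5.30 CPM in acinar-rich spots, and Rrm1 at 5.12 and 6.40 CPM. By definition, over 20% of the UMIs of these spots are acinar, which leaves less of the total to other genes. The share of all genes that were lower there is not given here. The 12 background genes spanned 0.109 to 0.365 CPM there in KPC-shZEB1, against 0.409 to 1.98 CPM outside. In KPC-shV they spanned 0.312 to 1.72 CPM, against 0.441 to 1.44 CPM outside. For Slc28a3 in KPC-shZEB1 and Slc28a1 in KPC-shV, the intervals inside and outside acinar-rich spots overlapped. Slc28a3 was at 1.66 CPM (91 UMIs) and 4.37 CPM (28 UMIs) in acinar-rich spots, above the highest of the 12 background genes there (0.365 and 1.72 CPM).

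**Figure D1:**
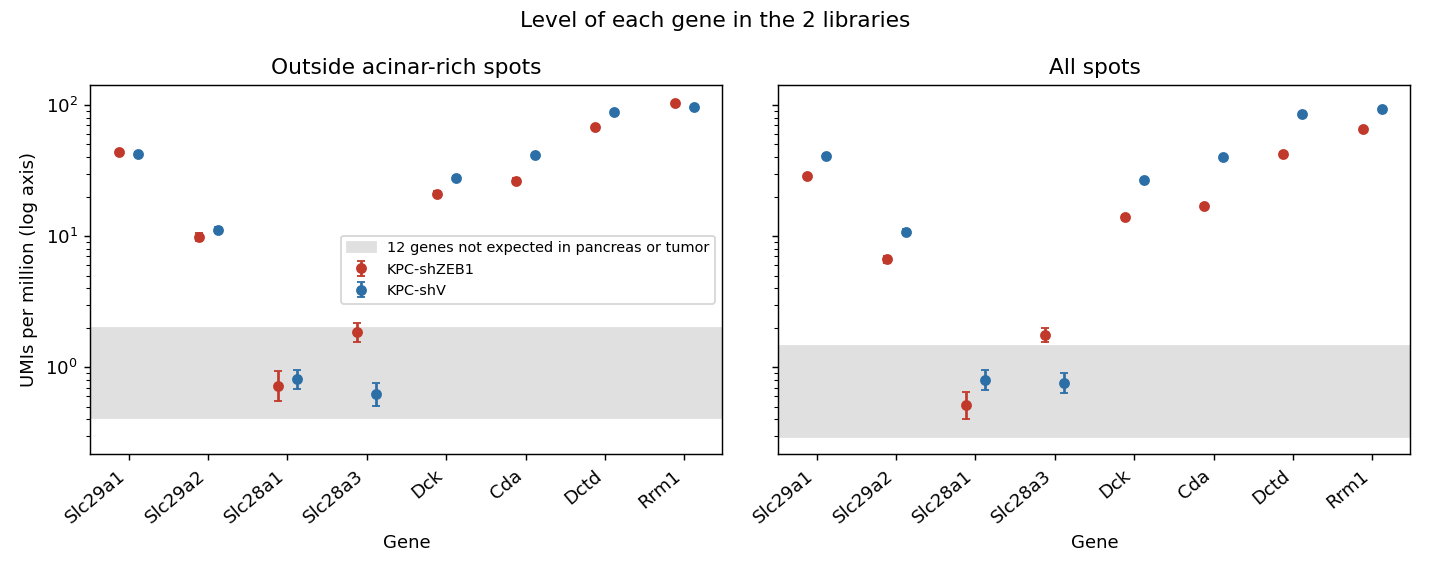
Level of each gene in CPM (log axis) in the library labelled KPC-shZEB1 (red) and the library labelled KPC-shV (blue), outside acinar-rich spots and over all spots; bars are exact 95% intervals for counting error, and the grey band spans 12 genes not expected in pancreas or tumor. Slc28a1 lies in the band in every case, and Cda, Dctd and Dck are lower in KPC-shZEB1 in both panels.

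The ratio of Cda was below 0 under all 10 alternative settings, from -1.24 over all spots to -0.43 in spots above the KPC-shV median of the tumor epithelium list. In spots at or below the KPC-shV median of the hypoxia list, a setting chosen after seeing the data, the ratio of Cda was -0.49 and that of Slc29a1 was -0.21. The part of the hypoxia list in these ratios was not tested. Dctd was likewise below 0 under all 10 settings (-1.02 to -0.20). Dck was below 0 under 9 of 10, and at 0.03 (-0.23 to 0.28) when each spot was thinned to 5000 UMIs. That value rests on 1 random draw: a second draw gave -0.22 (-0.48 to 0.03), and thinning to 20000 UMIs gave -0.34 (-0.48 to -0.21). Slc29a1 lay on both sides of 0 (-0.53 to 0.30), its highest value being from the same draw and 0.12 in the second, as did Rrm1 (-0.52 to 0.19).

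**Figure D2:**
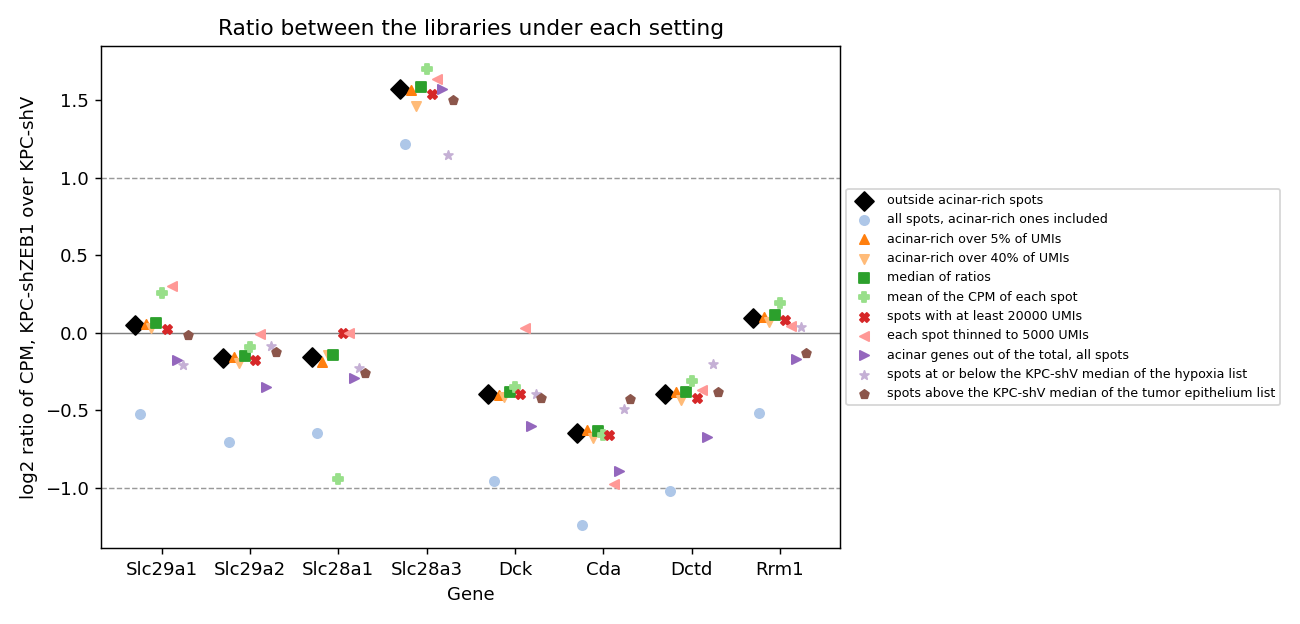
log2 ratio of CPM (KPC-shZEB1 over KPC-shV) for each of the 8 measured genes, outside acinar-rich spots (black diamonds) and under 10 other settings (other symbols); dashed lines mark 1 and -1. Cda and Dctd are below 0 and Slc28a3 is above 1 under every setting, while Slc29a1 and Rrm1 fall on both sides of 0.

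Next, the genes were read across spot types within each tumor. For each of 10 marker lists, the type was the 10% of spots outside acinar-rich ones with the highest share of UMIs from the list (147 spots in KPC-shZEB1, 330 in KPC-shV), and it was set against all other spots outside acinar-rich ones. The types overlap: 343 of 1466 and 876 of 3305 spots fell in at least 2 of them, and 104 of 147 B cell-rich spots of KPC-shZEB1 were also plasma cell-rich. The lymphocyte lists were thin in KPC-shV: the median B cell-rich and plasma cell-rich spot held 2 UMIs of its list there, against 13 and 54 in KPC-shZEB1, and the median T cell-rich spot held 4 against 21. The thresholds were 0.00471% and 0.0153% of UMIs for B cells and 0.00370% and 0.0627% for plasma cells in KPC-shV and KPC-shZEB1, respectively. A difference of 0.5 or more (log2) in one direction in both libraries is called past the fold. Since each type is set by its list in the same spots, the values describe where the genes were read and carry no test.

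Of the 6 genes above background, Cda had the widest spread of levels over the types. It was highest in hypoxia-rich spots, at 48.7 CPM in KPC-shZEB1 and 75.5 CPM in KPC-shV, and next in tumor epithelium-rich spots, at 46.3 and 65.9 CPM. The log2 differences from the other spots were 1.01 and 0.93 for hypoxia and 0.97 and 0.76 for epithelium. Cda was the 1 gene of 8 past the fold upwards in these types, beside 6.73% of all genes in hypoxia-rich and 2.63% in epithelium-rich spots. Its lowest levels were in B cell-rich spots of KPC-shZEB1 (4.89 CPM from 26 UMIs) and fibroblast-rich spots of KPC-shV (9.98 CPM from 65 UMIs). The highest type was 9.96-fold above the lowest in KPC-shZEB1 and 7.56-fold in KPC-shV.

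Across these types, each set against all other spots, the other deaminase, Dctd, shared the low side of this pattern but not the high side. It was at 32.3 and 22.1 CPM in fibroblast-rich spots (log2 -1.13 and -2.05) and at 27.3 and 27.0 CPM in macrophage-rich spots (-1.38 and -1.77). In tumor epithelium-rich spots it was at 79.6 and 85.8 CPM, a difference of 0.27 and -0.06, and in hypoxia-rich spots of 0.11 and -0.26. Its highest type was the mitosis-rich one, at 81.5 and 103 CPM. Cda and Dctd were both past the fold downwards in 6 types. In fibroblast- and macrophage-rich spots 3 of 8 genes were past it downwards (Slc29a2, Cda and Dctd), beside 14.2% and 15.3% of all genes. In plasma cell-rich spots the same 3 were, beside 8.01%. In T cell-, B cell- and endothelium-rich spots the 2 deaminases were, beside 7.76%, 10.5% and 7.54%, respectively. These stromal and immune types were shallower than the rest: median UMIs per spot in the fibroblast type were 44697 in KPC-shZEB1 and 15578.5 in KPC-shV, against 59299 and 58202 in the other spots. With spots of at least 20000 UMIs alone, the differences of Cda in fibroblast-rich spots were -1.47 and -1.57, and those of Dctd -1.10 and -1.59.

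Dck varied least of these 6 genes. Its highest type was 1.85-fold above its lowest in KPC-shZEB1 and 1.72-fold in KPC-shV, and it was past the fold in no type. It was highest in B cell-rich spots of KPC-shZEB1 (30.7 CPM) and macrophage-rich spots of KPC-shV (36.4 CPM), and in macrophage-rich spots it was above the other spots by 0.496 (0.28 to 0.71) and 0.42 (0.25 to 0.59), under 0.5 in both libraries. In T cell-rich spots, Dck was above the other spots by 0.35 and 0.34. The median difference of all genes was 0.04 and 0.23 in T cell-rich spots, and 0.00 and 0.12 in macrophage-rich spots. Of all genes, 67.7% and 55.2% had a lower difference than Dck in T cell-rich spots, and 73.7% and 62.9% in macrophage-rich spots. It was lowest in tumor epithelium-rich spots of both libraries, at 16.6 and 21.2 CPM (-0.39 and -0.42). Among its types, the 16.6 CPM of epithelium-rich and of hypoxia-rich spots in KPC-shZEB1 did not differ beyond their counting intervals.

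Slc29a1, the main gemcitabine transporter, was lower where the epithelial genes were highest. In tumor epithelium-rich spots it was at 27.0 and 24.9 CPM, a difference of -0.78 (-0.96 to -0.60) and -0.83 (-0.98 to -0.68). It and Slc28a3, at background there (0.380 and 0.327 CPM from 4 and 5 UMIs), were the 2 genes past the fold downwards in this type, beside 13.4% of all genes. The interval of Slc28a3 held 0 in this type of KPC-shV (-2.65 to 0.27). Slc29a1 was highest in mitosis-rich spots, at 61.0 and 49.4 CPM (0.54 and 0.26). The libraries differed in hypoxia-rich spots, where Slc29a1 was at 39.0 CPM in KPC-shZEB1 (-0.19) and 20.4 CPM in KPC-shV (-1.10), and in neutrophil-rich spots, at 40.5 CPM (-0.13) and 16.3 CPM (-1.40). These types are not alike in the libraries: the threshold of the hypoxia type was 0.234% of UMIs in KPC-shZEB1 and 0.707% in KPC-shV, that of the neutrophil type was 0.0302% and 0.190%, and neutrophil-rich spots of KPC-shV had a median of 7090 UMIs. At the KPC-shV thresholds, 10 spots of KPC-shZEB1 were hypoxia-rich and 6 were neutrophil-rich. Over 5 other settings of the types, the hypoxia-rich difference of Slc29a1 ran from -0.90 to -0.03 in KPC-shZEB1 and from -1.10 to -0.86 in KPC-shV. The neutrophil-rich one ran from -0.21 to 0.05 and from -1.48 to -0.71. Slc29a2 was lower in fibroblast- (-0.92 and -0.81), macrophage- (-1.15 and -0.71) and plasma cell-rich spots (-1.07 and -0.58), and highest in mitosis-rich spots (14.9 and 12.7 CPM).

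Rrm1 was the 1 gene past the fold upwards in mitosis-rich spots, at 141 and 130 CPM against 99.4 and 91.4 CPM in the other spots, a difference of 0.50 (0.42 to 0.59) and 0.51 (0.46 to 0.57). Of all genes, 1.72% were past it there. Rrm1 was lowest in B cell-rich spots of KPC-shZEB1 (65.9 CPM) and in hypoxia-rich spots of KPC-shV (55.4 CPM, a difference of -0.84). In hypoxia-rich spots of KPC-shZEB1 it was at 95.1 CPM (-0.14).

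The concentrative transporters gave few UMIs in any type. Slc28a1 was past the fold upwards in fibroblast- (9 and 16 UMIs), plasma cell- (7 and 13 UMIs) and endothelium-rich spots (7 and 18 UMIs), beside 20.2%, 19.2% and 17.6% of all genes. The intervals held 0 in each of these types of KPC-shZEB1 and in plasma cell-rich spots of KPC-shV. Slc28a3 was past the fold upwards in B cell-rich spots (14 and 13 UMIs), beside 25.2% of all genes, and downwards in hypoxia-rich spots (3 and 2 UMIs), beside 7.81%. The intervals of Slc28a3 held 0 in B cell-rich spots of KPC-shZEB1 (-0.35 to 1.35) and in hypoxia-rich spots of KPC-shV (-4.52 to 0.44). Its highest value was 5.06 CPM from 27 UMIs in endothelium-rich spots of KPC-shZEB1, where the 12 background genes reached 2.25 CPM. In endothelium-rich spots of KPC-shV it was at 0.787 CPM from 10 UMIs, within the background range.

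**Figure D3:**
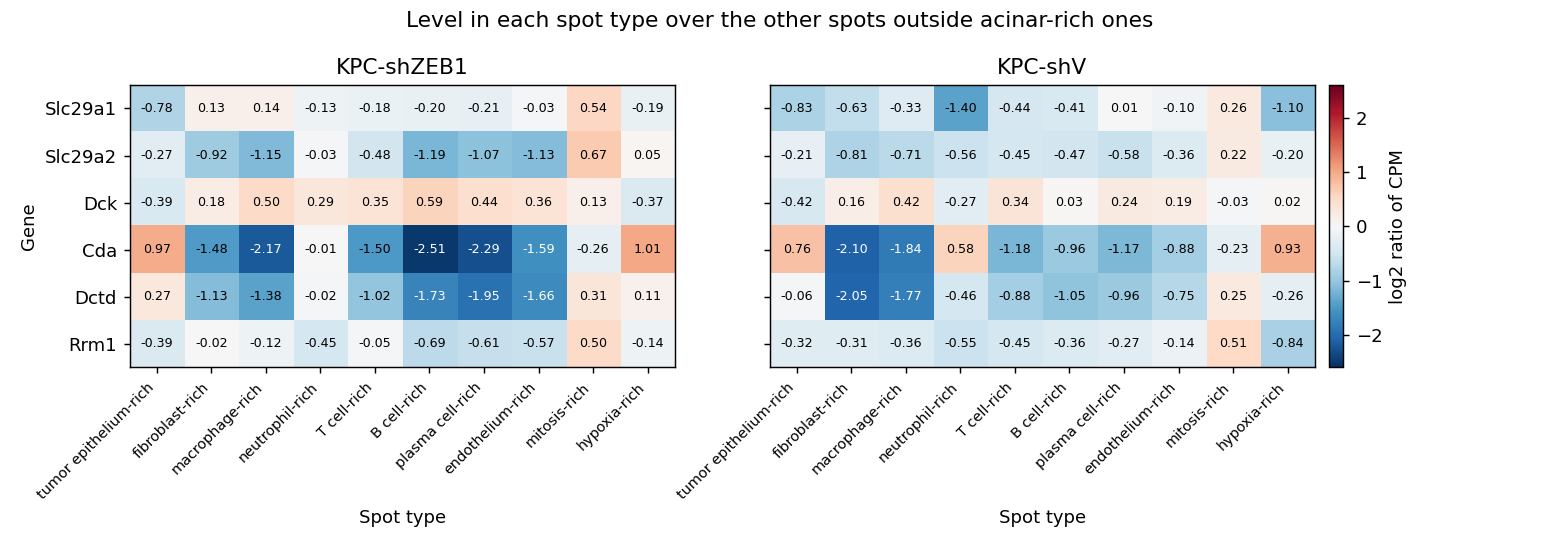
log2 ratio of CPM in each of 10 spot types over the other spots outside acinar-rich ones, for the 6 genes above background, in the library labelled KPC-shZEB1 (left) and the library labelled KPC-shV (right); red is higher and blue lower. Cda is high in tumor epithelium- and hypoxia-rich spots and, with Dctd, low in fibroblast-, macrophage- and lymphocyte-rich spots of both libraries.

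Within each type, the libraries were also set against each other. The median ratio of all genes ran from -0.30 in neutrophil-rich to 0.04 in mitosis-rich spots. Types are counted below as lower or higher against 0, not against these medians. Cda was level in fibroblast-rich spots, at 9.98 CPM in both libraries (-0.00, -0.51 to 0.51), and lower in KPC-shZEB1 in the other types. The lowest ratio, -2.16, was in B cell-rich spots, whose list gave 2 UMIs in the median spot of KPC-shV. Its ratio was -0.51 (-0.67 to -0.35) in tumor epithelium-rich and -0.63 (-0.82 to -0.44) in hypoxia-rich spots. Dctd was lower in 7 of 10 types, and its ratio was -0.11 (-0.24 to 0.02) in epithelium-rich spots and 0.55 (0.24 to 0.86) in fibroblast-rich spots. The medians of all genes in these types were -0.11 and -0.13. Dck was lower in 8 of 10 types, from -0.76 in hypoxia-rich to 0.12 in B cell-rich and neutrophil-rich spots. In plasma cell-rich spots the ratio of Dck was -0.21, as was the median of all genes. Slc29a1 was higher in KPC-shZEB1 in 9 of 10 types, with the widest gaps in neutrophil-rich (1.31, 0.90 to 1.74) and hypoxia-rich spots (0.93, 0.66 to 1.21), while its ratio was 0.12 (-0.11 to 0.34) in epithelium-rich spots and -0.02 (-0.10 to 0.06) in the spots of no type. Rrm1 was higher in 7 of 10 types, up to 0.78 (0.61 to 0.95) in hypoxia-rich spots. The same types of the libraries share a rule and not a composition, so that these ratios describe the sections.

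The spots outside acinar-rich ones were then put into 5 equal bins by their share of UMIs from the mitosis list, which holds genes of dividing cells. Rrm1 was higher in each next bin of both libraries, at 60.4, 87.4, 104, 117 and 140 CPM in KPC-shZEB1 and at 55.2, 70.4, 90.3, 105 and 125 CPM in KPC-shV. The log2 difference of the highest from the lowest bin was 1.22 (1.10 to 1.33) and 1.17 (1.07 to 1.28). Dctd went from 35.4 to 80.4 CPM and from 63.3 to 103 CPM, a difference of 1.18 and 0.71. Slc29a1 went from 35.0 to 57.3 CPM and from 27.2 to 48.4 CPM, a difference of 0.71 and 0.83, the last step in KPC-shV being from 49.6 to 48.4 CPM. These were the 3 genes of 8 that were higher by 0.5 or more in the highest than in the lowest bin in both libraries, beside 7.36% of all genes. Slc29a2 went from 6.32 to 13.4 CPM in KPC-shZEB1 (1.09) and from 9.52 to 11.9 CPM in KPC-shV (0.32). Dck was at 22.0 and 22.1 CPM in the end bins of KPC-shZEB1 and at 25.9 and 27.8 CPM in those of KPC-shV. Cda was lower at each step in KPC-shV, from 47.6 to 38.0 CPM, while in KPC-shZEB1 it was at 21.8 CPM in the lowest and 24.8 CPM in the highest bin. Median UMIs per spot moved with the bins, from 46414 to 61298 in KPC-shZEB1 and from 19181 to 72949 in KPC-shV.

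**Figure D4:**
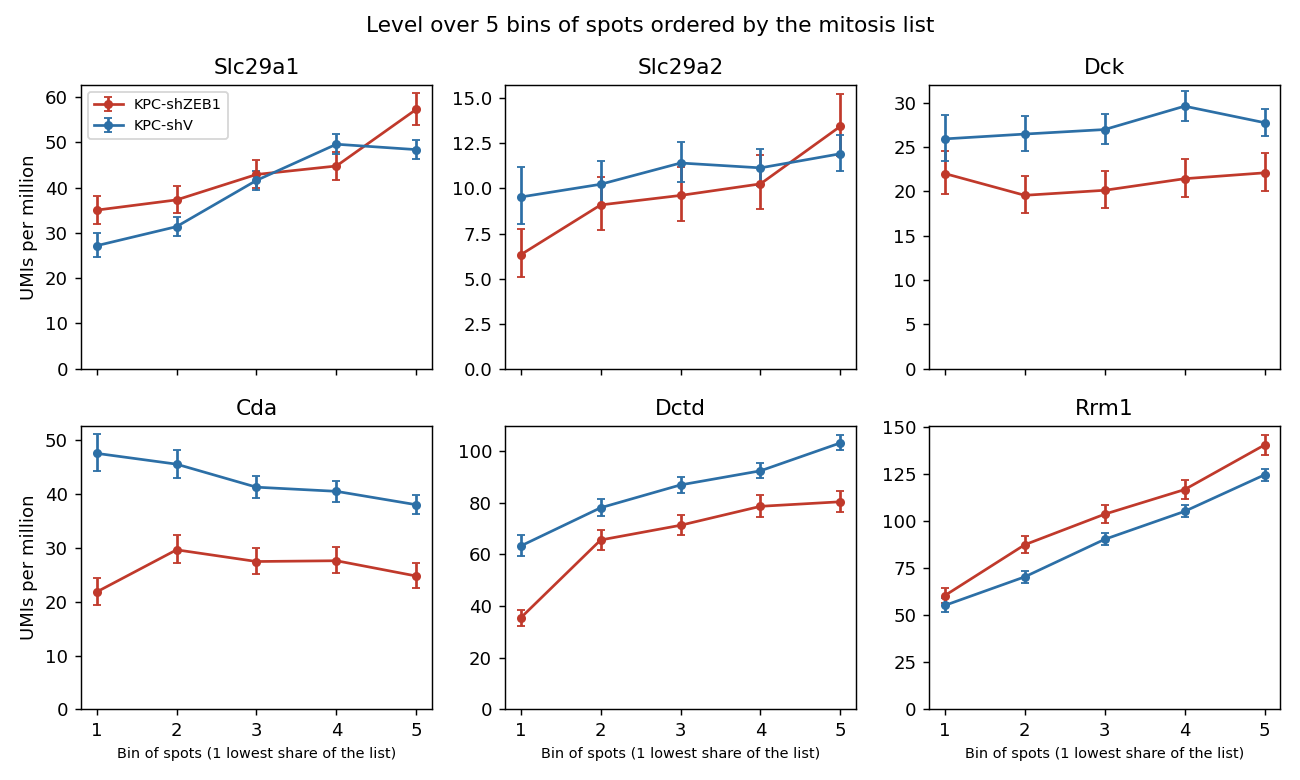
Level in CPM of the 6 genes above background over 5 equal bins of spots ordered by their share of mitosis-list UMIs, with exact 95% intervals, in the library labelled KPC-shZEB1 (red) and the library labelled KPC-shV (blue). Rrm1, Dctd and Slc29a1 are higher in bin 5 than in bin 1 in both libraries, and Dck is nearly level.

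Ordered by the tumor epithelium list instead, Cda was higher at each step, at 8.04, 19.1, 22.1, 33.4 and 41.1 CPM in KPC-shZEB1 and 12.9, 29.4, 42.7, 47.9 and 59.2 CPM in KPC-shV. The difference of the end bins was 2.35 (2.06 to 2.66) and 2.20 (2.00 to 2.40). Dctd went from 33.9 to 76.0 CPM and from 42.9 to 94.98 CPM (1.17 and 1.15), with its highest value in the fourth bin of both (79.3 and 107 CPM). Slc29a1 peaked in the second bin, at 54.6 and 60.0 CPM, and was lowest in the fifth, at 30.6 and 27.3 CPM. Dck went from 24.2 to 17.9 CPM and from 32.5 to 24.0 CPM (-0.44 in both). Rrm1 went from 113 to 86.9 CPM in KPC-shZEB1 (-0.38) and from 79.8 to 90.3 CPM in KPC-shV (0.18). The lowest epithelium bin was the shallowest, with a median of 40666.5 UMIs per spot in KPC-shZEB1 and 21956 in KPC-shV. The other bins had medians of 55393 to 68399 and of 55097 to 66513, respectively.

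**Figure D5:**
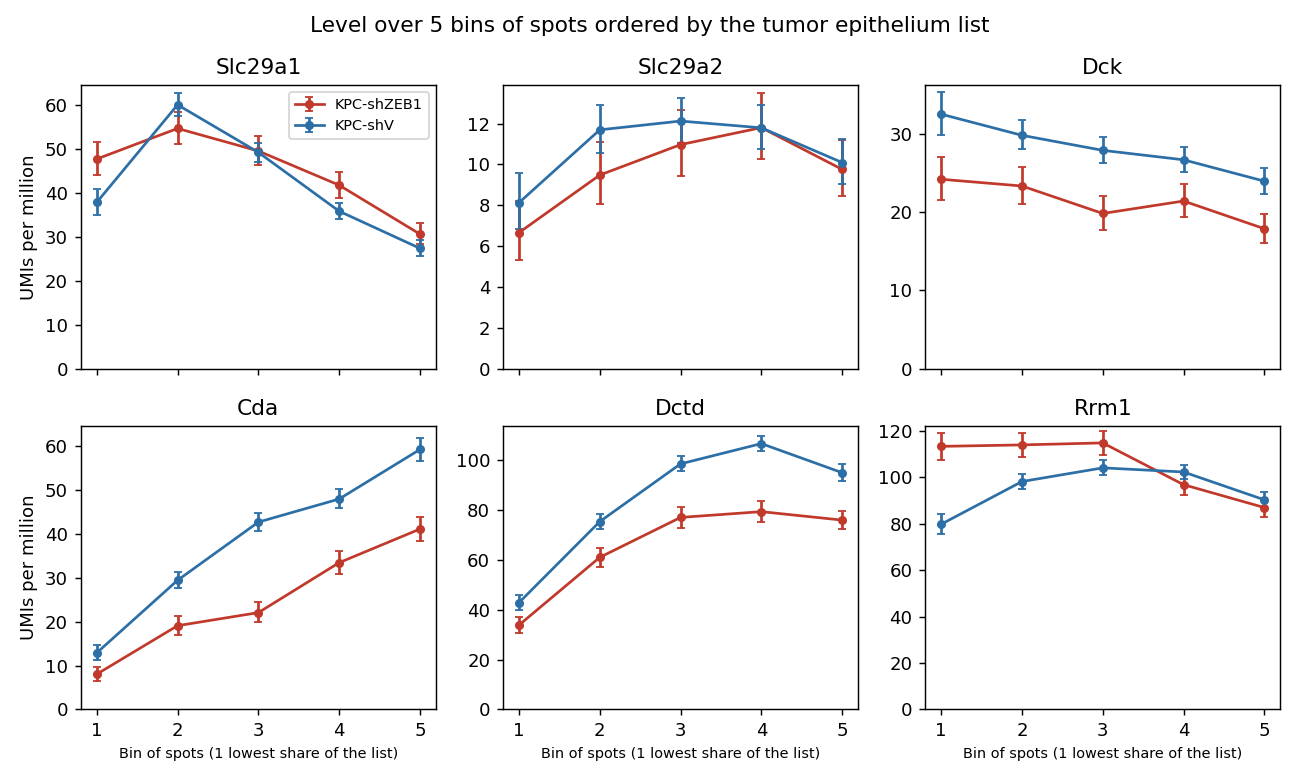
Level in CPM of the 6 genes above background over 5 equal bins of spots ordered by their share of tumor epithelium-list UMIs, with exact 95% intervals, in the library labelled KPC-shZEB1 (red) and the library labelled KPC-shV (blue). Cda is higher in each next bin, Dctd is highest in bin 4, and Slc29a1 is highest in bin 2 and lowest in bin 5.

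Ordered by the hypoxia list, Cda was again higher at each step, from 13.8 to 42.2 CPM in KPC-shZEB1 (1.61) and from 26.4 to 68.7 CPM in KPC-shV (1.38). Dctd went from 42.3 to 76.3 CPM and from 60.8 to 88.5 CPM (0.85 and 0.54), with its highest value of KPC-shV, 112 CPM, in the fourth bin. Slc29a1 was lower at each step in KPC-shV, at 53.03, 50.6, 44.7, 32.8 and 24.4 CPM, while in KPC-shZEB1 its bins lay between 40.5 and 47.9 CPM. The end bins of Dck were at 23.0 and 17.8 CPM in KPC-shZEB1 (-0.37) and at 28.9 and 27.0 CPM in KPC-shV (-0.09). The highest hypoxia bin of KPC-shV was shallow, with a median of 29291 UMIs per spot against 51260 to 66222 in its other bins.

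Because tumor epithelium- and hypoxia-rich spots overlapped (32 of 147 in KPC-shZEB1 and 134 of 330 in KPC-shV), each epithelium bin was split at its own median of the hypoxia list. The epithelium share still varied within a bin, from 0.963% to 2.05% in the fifth bin of KPC-shZEB1. The parts were not matched for it, so the split does not fully separate the lists, and the part of each was not tested. Cda was higher in the hypoxia-high part of the bin in 5 of 5 bins of each library, by 0.33 to 0.59 and by 0.30 to 0.60 (log2), and the interval lay above 0 in 4 of 5 bins of each. In the fifth bin it was at 48.6 against 34.5 CPM and at 75.8 against 50.0 CPM. Slc29a1 was lower in the hypoxia-high part in 5 of 5 bins of KPC-shV (-0.53 to -0.07) and higher in 4 of 5 bins of KPC-shZEB1 (-0.01 to 0.49). Dctd in the hypoxia-high part differed by 1.45 and 0.95 in the lowest epithelium bin and by -0.11 and -0.20 in the highest one.

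A single spot held few molecules of these genes. The median spot outside acinar-rich ones had 5 UMIs of Rrm1, 3 of Dctd, 2 of Slc29a1 and 1 each of Dck and Cda in KPC-shZEB1, and 4, 4, 1, 1 and 2, respectively, in KPC-shV. To compare shares at equal depth, 5000 UMIs were drawn from each spot, and 4 and 175 spots with fewer were left out. Cda was then found in 139 of 1462 spots of KPC-shZEB1 (9.51%, 8.05 to 11.1) and 562 of 3130 spots of KPC-shV (18.0%, 16.6 to 19.3), and unthinned in 64.9% and 69.9%. A second random draw gave 11.8% and 17.7%. Dctd was found in 26.1% (23.8 to 28.4) and 31.4% (29.8 to 33.1), and Slc29a1 in 19.6% (17.6 to 21.8) and 16.5% (15.2 to 17.8). In a second draw Dctd was found in 27.1% and 31.9%, and Slc29a1 in 18.1% and 16.5%. Dck was found in 11.8% (10.2 to 13.6) and 11.7% (10.6 to 12.9), in a second draw in 11.8% and 13.4%, and with 20000 UMIs per spot in 33.8% (31.3 to 36.3) and 42.4% (40.5 to 44.3). Rrm1 was found in 34.1% (31.6 to 36.6) and 36.2% (34.5 to 37.9), an order that other draws reversed. A second draw gave 35.7% and 34.7%. With 2000 UMIs per spot Rrm1 was in 17.9% and 16.3%, and with 20000 in 81.7% and 81.0%. Unthinned, Dctd was in 87.4% and 80.6% of spots, Slc29a1 in 83.9% and 68.5%, Dck in 67.0% and 66.0% and Rrm1 in 94.9% and 84.8%. Slc28a1 was in 0.479% and 0.447% and Slc28a3 in 1.09% and 0.351% of thinned spots, where the most widespread of the 12 background genes was in 0.958% and 1.02%. The Slc28a3 share in KPC-shZEB1, from 16 spots, was the only one of these 4 above background, and its interval (0.627 to 1.77) held that value.

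The other genes that move or convert nucleosides showed no common direction. Of 36 listed, 33 were in the feature list, and all 33 had at least 100 UMIs in both libraries together. Their median log2 ratio outside acinar-rich spots was 0.03, beside -0.01 over all genes, with 17 above and 16 below 0. One was past the fold downwards (Slc29a4, a plasma membrane monoamine transporter of the ENT family, at 2.62 and 5.25 CPM, -1.004) and 0 upwards. Next lowest were Nt5e (CD73, the ectonucleotidase that makes adenosine), at 64.1 and 103 CPM (-0.69), and the uridine-cytidine kinase Uck2, at 126 and 172 CPM (-0.44). The highest were the purine transporter Slc28a2 (CNT2), at 22.6 and 11.5 CPM (0.97), the dNTP hydrolase Samhd1, at 211 and 110 CPM (0.93), and the purine nucleoside phosphorylase Pnp, at 214 and 157 CPM (0.44). Named for their part in gemcitabine handling, after their values were seen, Cmpk1, the kinase that takes gemcitabine monophosphate to its diphosphate, was at 64.4 and 80.3 CPM (-0.32) and the export pump Abcc5 at 27.6 and 23.5 CPM (0.23).

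Genes of the S phase, when ribonucleotide reductase is in demand, had a median of -0.00 over 16 genes, 8 above and 8 below 0, with 0 past the fold. Their extremes were Mcm7 (-0.49), Mcm4 (-0.41) and Slbp (-0.33) below, and Pcna (0.46), Prim1 (0.24) and Fen1 (0.20) above.

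The genes most like each of the 5 better measured ones were ranked by Pearson's r over spots of log2(UMIs per 10000 + 1), taking the lower of the values from the 2 libraries (1466 and 3305 spots, 7483 genes of at least 20 CPM in both). Spots share a section and their depth, so r is a description. Cda was most like Anxa2 (0.46 in KPC-shZEB1 and 0.44 in KPC-shV), the ductal keratins Krt7 (0.45 and 0.43) and Krt19 (0.43 and 0.42), Rdh10 and Ccng2. Of these, Krt7 and Krt19 are also in the tumor epithelium list. Dctd was most like Wfdc2 (0.50 and 0.51), Myc (0.53 and 0.50), Hspd1, Cdkn2a and Ncl. Rrm1 was most like 5 histone genes, led by Hist1h3b (0.46 and 0.44) and Hist1h2bj (0.51 and 0.44), whose near-identical copies make the exact gene uncertain. Slc29a1 was most like Canx (0.26 and 0.26), Hist1h2ag (0.24 and 0.28), Hist1h2bj (0.24 and 0.31), S100a4 and Emp3. Dck was most like Hist1h1b (0.14 and 0.16), Axl, Epn1, Rab5c and Ubl3. The values of Slc29a1 and Dck, and those between members given next, were too weak in sparse counts to read as a pattern. Between members, the highest were Rrm1 with Dctd (0.19 and 0.20), Cda with Dctd (0.20 and 0.20) and Rrm1 with Slc29a1 (0.19 and 0.17), and Cda with Dck was at -0.12 and -0.05.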

How the data were processed

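Spatial gene expression was measured on 2 Visium CytAssist libraries, 1 per group. The submitters' processing notes name Space Ranger 2.0.1 and the mm10 build, and the deposited matrices of the authors hold raw counts of UMIs per gene and spot. The members and all gene lists were chosen with earlier results of these data known. Counts were summed over spots and divided by the summed total to give CPM, with exact Poisson intervals for levels, exact conditional binomial intervals for ratios and exact Clopper-Pearson intervals for shares, all at 95% and for counting error only. With 1 library per group no test, SD or count model was used. Comparisons across all genes took those whose UMIs summed to 100 or more. Outside acinar-rich spots the totals under the labels KPC-shZEB1 and KPC-shV were 85651838 and 165648382 UMIs, so that 3 UMIs, the limit that a count of 0 allows, are 0.0350 and 0.0181 CPM. Named genes are the 10 members, the 3 highest and 3 lowest ratios of the other nucleoside handling and S phase lists, the 5 genes most like each member with at least 20 CPM, and Zeb1; Cmpk1 and Abcc5 were added later. Bins by epithelium and hypoxia lists, and the settings that keep spots low in hypoxia or high in epithelium genes, and the further thinned ratios were chosen after seeing the data. Of the marker lists, Krt18, Ccnb1 and Ldha were not in the feature list. Of the acinar list, 19 of 24 genes were in it, and Cpb1, Pnliprp1, Amy2b, Prss1 and Try5 were not. A further gene list and the driver alleles of the cells are not reported here. Ratios among reductase subunits were planned and not computed, since Rrm2 and Rrm2b were not analysed here. Gene positions come from GENCODE on GRCm38 and promoter windows from RefSeq on GRCm38.p6. Scripts were tested on simulated data and used Python 3.11.15, numpy 2.4.6, scipy 1.17.1, pandas 2.3.3 and matplotlib 3.10.9.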

Additional observations from a re-analysis of the deposited data

Results flagged for a closer look

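For Rrm1, the end bins of the hypoxia list differed in opposite directions in the libraries. Its log2 difference of the highest from the lowest hypoxia bin was 0.34 (0.23 to 0.45) under the label KPC-shZEB1 and -0.50 (-0.59 to -0.41) under KPC-shV. Rrm1 did not move steadily over the 5 hypoxia bins of either library. It was at 82.8, 114, 110, 103 and 105 CPM in KPC-shZEB1 and at 96.0, 102, 109, 96.6 and 67.9 CPM in KPC-shV. Along the tumor epithelium list the end-bin differences of Rrm1 were -0.38 (-0.48 to -0.28) and 0.18 (0.09 to 0.27). Its epithelium bins were at 113, 114, 115, 96.8 and 86.9 CPM and at 79.8, 98.1, 104, 102 and 90.3 CPM, respectively. Slc29a1 also differed in direction between the hypoxia-high and hypoxia-low parts of the second tumor epithelium bin, at 0.22 (0.03 to 0.42) in KPC-shZEB1 and -0.53 (-0.67 to -0.39) in KPC-shV, and of the third bin, at 0.22 (0.02 to 0.41) and -0.38 (-0.51 to -0.24). The intervals cover counting error only, and the difference between the libraries was not tested, since each group has 1 library. The bins of both libraries do not span the same shares of hypoxia UMIs, and the part of this in the values was not tested.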

How the results depend on the processing

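With 1 library per group, no replicate could be left out. No paired analysis was possible because each group has 1 library. Of 90 alternative values of the ratios between libraries, 56 lay within the counting interval of the reported value. The sign was the opposite one in 9, of which 4 were for Slc29a1, whose interval held 0: -0.53 over all spots, -0.18 with acinar genes taken out of the total, -0.21 in the spots low in hypoxia genes and -0.016 in those above the epithelium median. The other 5 are as follows. Rrm1 was at -0.52 over all spots, -0.17 with acinar genes taken out of the total and -0.13 in spots above the KPC-shV median of the tumor epithelium list. Zeb1 was at -0.20 over all spots, where the median of all genes was -0.48. Dck was at 0.027 with each spot thinned to 5000 UMIs, though -0.22 in a second draw. Members at -1 or below went from 0 to 2 over all spots. Other nucleoside handling genes at -1 or below went from 1 to 2 over all spots, and to 0 under median-of-ratios scaling, the mean of per-spot CPM, thinning to 5000 UMIs and the spots low in hypoxia genes, where Slc29a4 lies at the threshold. Those at 1 or above went from 0 to 1 in spots of at least 20000 UMIs and in the spots above the epithelium median. Of 784 alternative values across spot types, 614 lay within the interval and 2 of those that were past the fold changed sign, both for Slc28a1 in plasma cell-rich spots of KPC-shV, at -0.58 in spots of only 1 type and -0.18 as a mean of per-spot CPM. The end-bin difference of Slc28a1 over mitosis bins in KPC-shV was 0.093 in spots of at least 20000 UMIs. Members found in no more spots of KPC-shZEB1 than the most widespread background gene went from 1 to 2 with thinning to 2000 UMIs, another random draw or no thinning. The cause was not tested. Depth limits Slc28a1 and Slc28a3, whose counts lie near background. Other settings for the reductase subunit ratios were not run, since Rrm2 and Rrm2b were not analysed here.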
